A study of Mus musculus with 6 samples.

Results

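The TNF and TNF receptor superfamilies were followed in tumors grown from MC38, a mouse colon cancer cell line. Every row of the deposited gene table was taken whose name was a numbered Tnfsf or Tnfrsf gene or was Tnf, Lta, Ltb, Ltbr, Fas, Fasl, Cd40, Cd40lg, Cd27, Cd70, Ngfr, Eda, Eda2r or Edar, apart from 3 genes of the RANK ligand and receptor system that the rule leaves out. This gave 42 of 33965 genes, namely 17 ligands, 24 receptors and Tnfsf13os, a noncoding RNA antisense to the Tnfsf12 and Tnfsf13 locus. MC38 cells had been placed under the skin of female C57BL/6 mice bought at 6 weeks of age, and the mice received PBS or GB2. GB2 is a prodrug in which the STING agonist MSA-2 is joined by a disulfide bond to artesunate, used by the study as an inhibitor of TREM2. It was given at 10 mg/kg in the study's MC38 experiments. Bulk RNA-seq was done on 3 PBS tumors and 3 GB2 tumors, which carried no engineered allele and differed by label only in treatment. The question of the comparison is how the tumor transcriptome differs under GB2. The labels do not say that each tumor came from a separate animal, so the p-values measure the spread between these 6 samples.

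Ligands of the family are mostly trimeric proteins of the cell surface, some of which are cut free by proteases such as ADAM17, and each binds a cysteine-rich receptor. Receptors with a death domain, such as TNFR1 and FAS, can recruit TRADD or FADD and lead to caspase activation or necroptosis. Receptors without a death domain, such as TNFR2, CD40 and the lymphotoxin beta receptor, bind TRAF adaptors and feed NF-kappa B and MAP kinase signalling. A few are decoys that bind ligand and carry no signalling tail. In tumors the family is known for macrophage-derived TNF, for costimulation of T cells through CD137, OX40, GITR and CD27, and for licensing of dendritic cells through CD40.

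The 6 libraries held between 64764405 and 83690056 estimated counts, with every GB2 library deeper than every PBS library. PBS tumor 1 lay apart from the other tumors on the leading principal component, which held 34% of the variance. Low counts were heaped on multiples of 4, so that a count of 4 corresponds to about 1 read pair, and values under 12 counts rest on fewer than about 3 read pairs. Epithelial markers were low in these tumors of a colon cancer line, with none of the 7 above 1.6 FPKM, the level of Krt18 in GB2 tumor 2. Epcam was at 0.176, 0.0982 and 0.0744 FPKM in PBS tumors and 0.345, 0.377 and 0.456 FPKM in GB2 tumors, so that its groups did not overlap, while the other 4 tested epithelial genes overlapped. In bulk tissue, a difference in the number of cells of a type and a difference in RNA per cell cannot be told apart.

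Transcripts of the family came mainly from 3 receptors. Ltbr, the lymphotoxin beta receptor, had the highest mean over all tumors, at 40.5, 45.1 and 58.4 FPKM (fragments scaled to gene length and library size) in PBS tumors and 41.5, 44.8 and 50.9 FPKM in GB2 tumors. Tnfrsf1a, which encodes TNFR1, the widely expressed death domain receptor of TNF, followed at 31.2, 41.8 and 43.1 FPKM and 39.8, 45.3 and 45.3 FPKM. The ranges of these genes overlapped, so their order was not resolved, and in GB2 tumor 2 Tnfrsf1a was the higher. Tnfrsf12a, the receptor of TWEAK, lay below both in every tumor, at 18.5, 21.8 and 17.8 FPKM under PBS and 17.6, 27.4 and 22.7 FPKM under GB2. Together the 3 made up 87.7% to 90% of the summed receptor FPKM in PBS tumors and 86.2% to 86.6% in GB2 tumors. Among ligands, Tnfsf9, which encodes the ligand of CD137, was highest at 6.99, 13.2 and 9.89 FPKM in PBS tumors and 8.99, 10.4 and 8.79 FPKM in GB2 tumors. It made up 75.4% to 80.7% of the summed ligand FPKM under PBS and 66.3% to 75.2% under GB2. The fifth highest mean over all tumors was that of Tnfrsf22, a decoy receptor, at 1.68, 2.38 and 2.93 FPKM against 3.18, 2.67 and 3.63 FPKM. In PBS tumors alone Tnfrsf9 had a higher mean, 2.61 against 2.33 FPKM.

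**Figure D1:**
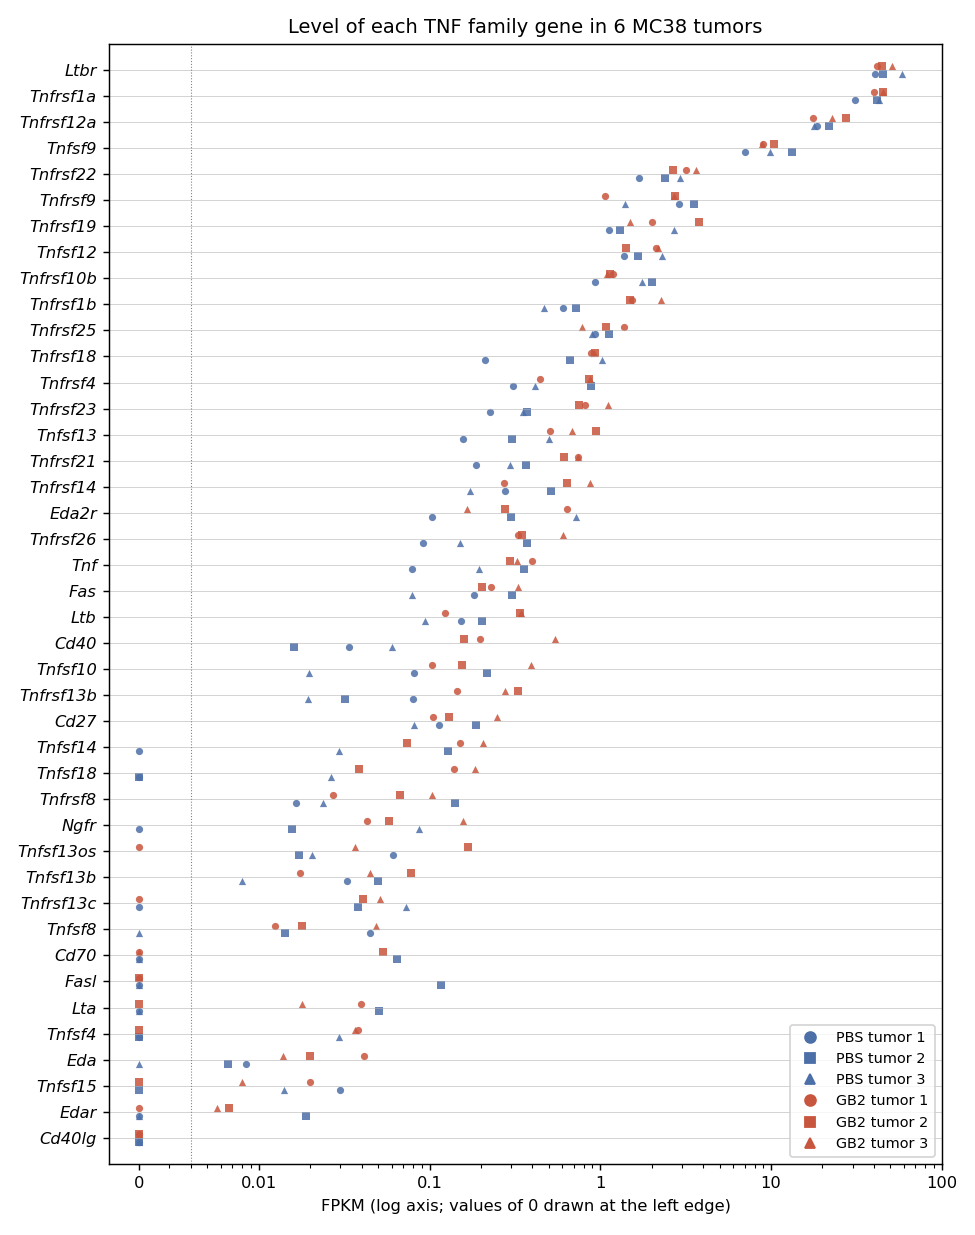
FPKM of all 42 members in each of the 6 tumors on a log axis, with PBS tumors in blue and GB2 tumors in red, genes ordered by their mean and values of 0 at the left edge. Ltbr, Tnfrsf1a and Tnfrsf12a are the 3 genes with a mean above 20 FPKM, and 31 members have a mean below 1 FPKM.

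The plot of levels shows how low most of the family was. Only 3 members had a mean above 20 FPKM, 8 lay between 1 and 20 FPKM, and 31 were below 1 FPKM, of which 16 were below 0.1 FPKM. Summed over the family, ligands stood at 8.94, 16.4 and 13.1 FPKM in PBS tumors and 12.7, 13.9 and 13.3 FPKM in GB2 tumors. Receptors stood at 100, 124 and 133 FPKM in PBS tumors and 114, 136 and 138 FPKM in GB2 tumors. The groups overlapped in both sums.

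Under GB2, 5 receptor genes of low or moderate abundance, Tnfrsf1b, Cd40, Tnfrsf13b, Tnfrsf21 and Tnfrsf23, were higher than in any PBS tumor, while the abundant receptors and all tested ligands overlapped between groups. Counts were enough to test 30 members, 8 ligands and 22 receptors, against 19602 genes tested in all. The quasi-likelihood test of edgeR, adjusted by Benjamini-Hochberg, called 0 members at an adjusted p below 0.05 with at least 2-fold change, as it called 0% of all genes. The lowest adjusted p was 0.234 among members and 0.166 over all genes. Before adjustment, with p below 0.05 and at least 2-fold change, 5 members were higher in GB2 tumors and 0 were lower, beside 3.74% and 0.918% of all genes. No other member had an unadjusted p below 0.05, which 6.94% of all genes had in either direction. Among tested members, the same 5 lay wholly above PBS, beside 8.61% of all genes tested, and 0 lay wholly below, beside 6.68%. Eda and Tnfsf18, which had too few counts to be tested, also lay wholly above, and without the filter 7 members did, beside 6.23% of 31840 genes. DESeq2, at its own adjusted p under 0.05, called 4 of the 5 as higher, without Tnfrsf13b, and 0 members as lower, beside 1.80% and 0.168% of all genes. limma voom called 0 members after adjustment and gave the same 5 at its unadjusted p. Of the 5, Cd40 and Tnfrsf13b were above the limit of the filter on low counts in 1 PBS tumor and 3 GB2 tumors. They entered the test mainly through the group where they were high, which limits these counts and the DESeq2 call of Cd40. Tnfrsf1b, Tnfrsf21 and Tnfrsf23 were above the limit in every tumor.

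These counts moved when single tumors were left out. Without PBS tumor 3, 8 members were higher at an unadjusted p under 0.05, with Ngfr, Tnfsf13 and Tnfsf18 added to the 5, beside 4.02% of all genes in that fit. There were 6 without GB2 tumor 2, with Tnfsf18 added, beside 3.32%, and 6 without PBS tumor 2, with Tnfrsf26 added, beside 3.93%. In these fits Tnfsf18 passed the filter on low counts through GB2 tumors alone, as did Ngfr without PBS tumor 3. This limits the counts that include them. The other fits gave the same 5, among them that without PBS tumor 1, which stood apart.

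At 3 against 2 samples groups separate more easily, for members and for all genes. With GB2 tumors 1, 2 and 3 left out in turn, 10, 8 and 6 members lay wholly above PBS, beside 11.6%, 11.9% and 13.6% of all genes. Leaving out PBS tumor 1 gave 7 members, beside 14.0%, and leaving out PBS tumor 3 gave 12, beside 15.6%. The most, 14, came from leaving out PBS tumor 2, where 2677 of 20608 genes lay wholly above. Eda and Tnfsf18 are among the members in several of these counts and passed the filter through GB2 tumors alone. So did Ngfr without PBS tumor 3, and Tnfrsf8 and Tnfsf14 without PBS tumor 2. Tnfrsf10b lay wholly below without PBS tumor 1 and Tnfrsf9 without PBS tumor 3, 1 member in each case, beside 12.6% and 14.7%.

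**Figure D2:**
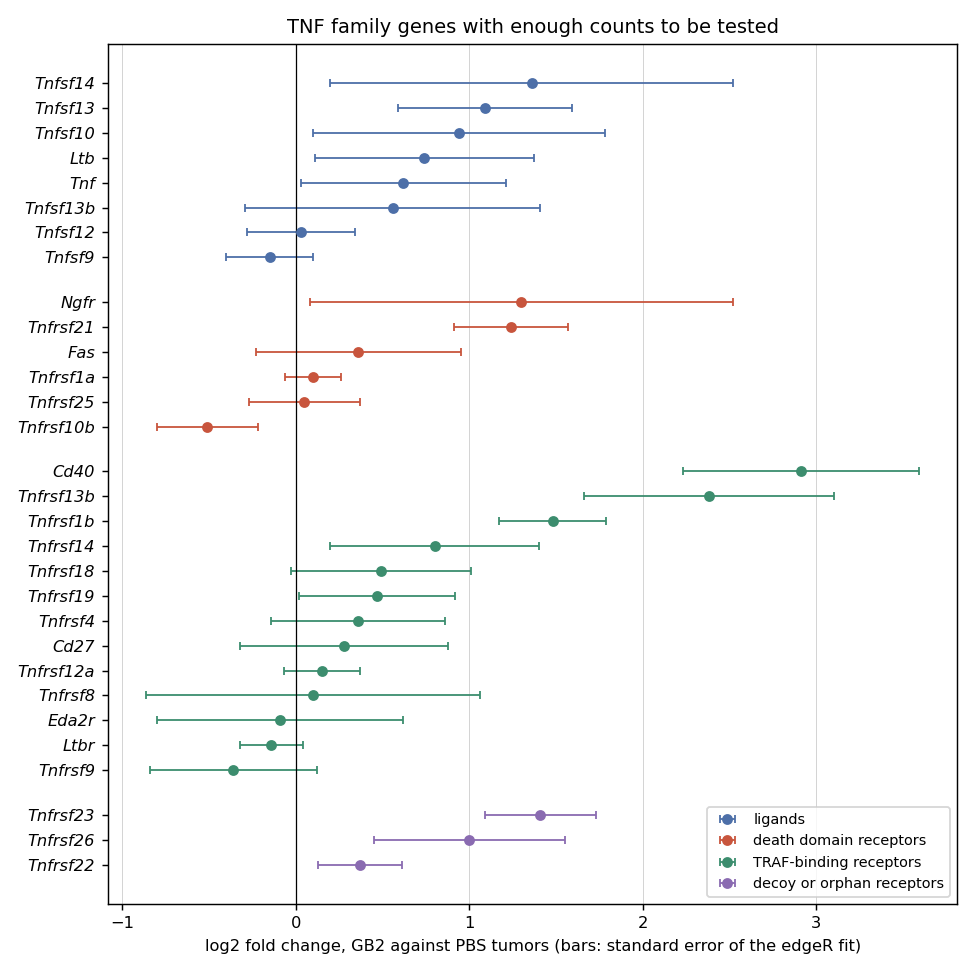
Log2 fold change of GB2 against PBS tumors for the 30 tested members, grouped by role, with bars for the standard error of the edgeR fit. Cd40 at 2.91 and Tnfrsf13b at 2.38 lie farthest to the right, and Tnfrsf10b at -0.51 lies farthest to the left.

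Log2 fold changes were above 0 for 25 tested members and below 0 for 5, beside 48.3% above 0 among all genes tested. Of these 30 values, 10 turned direction when single tumors were left out. The median was 0.48 over tested members and -0.02 over all genes. By role the median was 0.68 for the 8 ligands, 0.23 for 6 death domain receptors and 0.36 for 13 TRAF-binding receptors, and the 3 decoy or orphan receptors had fold changes of 1.29, 1.99 and 2.66. The tally of directions and these medians describe only the genes that passed the filter on low counts. Of the 30, 23 were above its limit of 0.132 CPM (counts scaled to library size) in all 6 tumors. Cd40, Ngfr, Tnfrsf13b, Tnfrsf8 and Tnfsf14 were above it in 1 PBS tumor alone, and so passed mainly on their GB2 tumors. Each had a log2 fold change above 0 and is among the 25, so part of that tally came through the filter.

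Tnfrsf1b encodes TNFR2, the TNF receptor without a death domain, known on myeloid cells, regulatory T cells and endothelium. PBS tumors held 159, 201 and 130 estimated counts, and GB2 tumors held 493, 500 and 742. This was 2.46 ± 0.544 CPM under PBS and 6.87 ± 1.61 CPM under GB2 (SD, n = 3). All GB2 tumors were above all PBS tumors, and GB2 tumor 3 was highest. The log2 fold change was 1.48 (SE 0.31), with an edgeR adjusted p of 0.234 and a DESeq2 adjusted p of 0.000729. Leaving out each tumor in turn gave values from 1.27 to 1.61. The FPKM of Tnfrsf1b relative to Tnfrsf1a was 0.0193, 0.0171 and 0.0108 in PBS tumors and 0.0384, 0.0332 and 0.0501 in GB2 tumors. The groups did not overlap in this ratio, and Tnfrsf1a exceeded Tnfrsf1b by 51.7 to 92.2 times under PBS and by 20 to 30.1 times under GB2.

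Cd40, the receptor through which CD40 ligand activates macrophages, dendritic cells and B cells, had estimated counts of 8, 5 and 15 in PBS tumors and 60, 49 and 159 in GB2 tumors. In PBS tumors this was a few read pairs at most. GB2 tumor 3 held more counts than the other GB2 tumors together. The level was 0.139 ± 0.0707 CPM under PBS and 1.06 ± 0.706 CPM under GB2 (SD, n = 3). The log2 fold change was 2.91 (SE 0.68), with an edgeR adjusted p of 0.281 and a DESeq2 adjusted p of 0.0091. Without GB2 tumor 3 the fold change dropped from 7.51 to 4.63. With all 6 tumors its log2 fold change was the largest of the 30 tested members. Among those 30, Tnfrsf13b was larger without PBS tumor 1 or GB2 tumor 3 and Tnfsf14 without PBS tumor 2. Members that passed the filter only in fits with a tumor left out, such as Tnfsf18, are not ranked here. The ligand gene Cd40lg was listed at 0 in all 6 tumors.

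Tnfrsf13b encodes TACI, a receptor of BAFF and APRIL known mainly on B cells. It had estimated counts of 16, 7 and 4 in PBS tumors and 35, 83 and 68 in GB2 tumors, so each PBS value again rested on a few read pairs. The log2 fold change was 2.38 (SE 0.72), with an edgeR adjusted p of 0.465 and a DESeq2 adjusted p of 0.104. Without PBS tumor 1, which held the highest PBS count, the fold change went from 5.2 to 9.39. Under a stricter minimum of 40 counts Tnfrsf13b was no longer tested. Of B cell markers, Ms4a1 was not tested, at 4, 5 and 4 counts under PBS, about 1 read pair each, and 0 in all GB2 tumors. All 5 tested genes of the B and plasma cell list overlapped between groups, 2 with a log2 fold change above 0 and 3 below. The summed FPKM of the list was 0.502, 1.31 and 0.891 under PBS and 0.575, 0.964 and 0.887 under GB2.

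Tnfrsf21, the death domain receptor DR6, had estimated counts of 53, 111 and 89 in PBS tumors and 259, 220 and 261 in GB2 tumors. GB2 tumors lay close together, at 2.93 ± 0.25 CPM against 1.24 ± 0.34 CPM under PBS (SD, n = 3). The log2 fold change was 1.24 (SE 0.33), with an edgeR adjusted p of 0.357 and a DESeq2 adjusted p of 0.0182. Tnfrsf21 was the only death domain receptor whose groups did not overlap.

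Tnfrsf23, a decoy receptor of TRAIL in mouse, had estimated counts of 63, 110 and 103 in PBS tumors and 275, 261 and 378 in GB2 tumors. The level was 1.36 ± 0.261 CPM under PBS and 3.62 ± 0.719 CPM under GB2 (SD, n = 3). The log2 fold change was 1.41 (SE 0.32), with an edgeR adjusted p of 0.269 and a DESeq2 adjusted p of 0.00238. Tnfrsf23 sits in a cluster on chromosome 7 with its paralogs Tnfrsf26 and Tnfrsf22, all on the same strand, with gaps of 6.1 and 16.1 kb. Reads of such similar genes can be divided between them in ways the table does not show, so the separate values are uncertain. Tnfrsf26 and Tnfrsf22 overlapped between groups, with log2 fold changes that ranged over left-out tumors from 0.68 to 1.70 and from 0.25 to 0.54. Without PBS tumor 2, where Tnfrsf26 was at 1.70, it passed the unadjusted threshold.

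**Figure D3:**
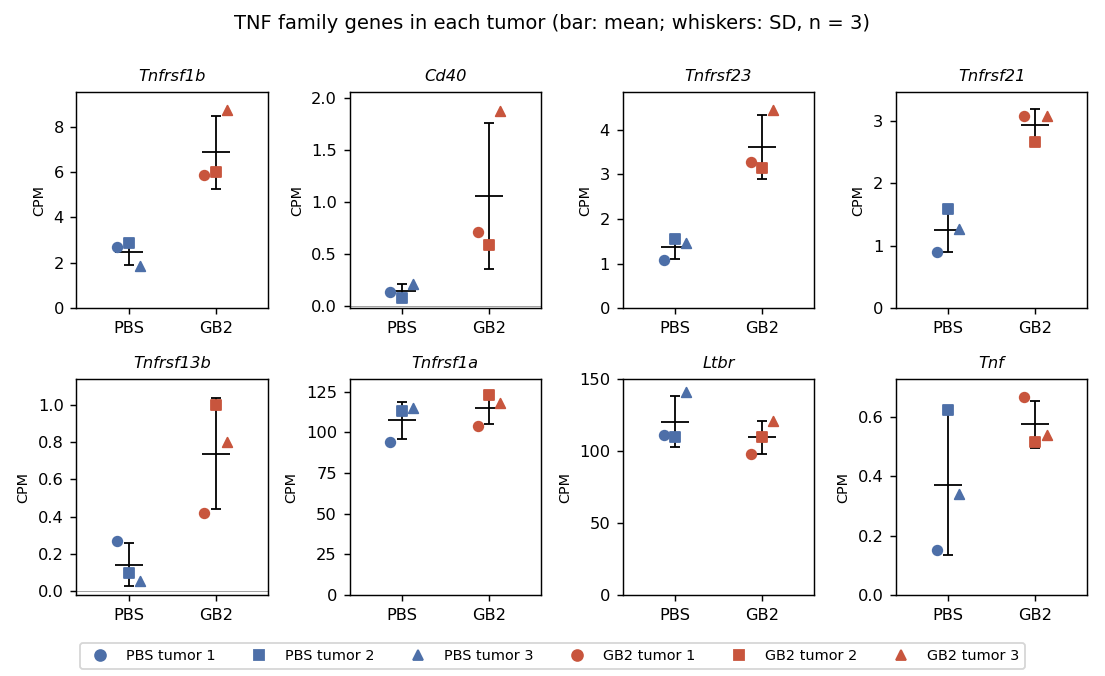
CPM of the 5 receptor genes higher in GB2 tumors, and of Tnfrsf1a, Ltbr and Tnf, in each tumor, with the mean and SD of 3 tumors per group and axes from 0. In the first 5 panels every GB2 tumor lies above every PBS tumor, while Tnfrsf1a, Ltbr and Tnf overlap.

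The panels of CPM values show that GB2 tumor 3 was highest for Tnfrsf1b, Cd40 and Tnfrsf23 but not for Tnfrsf21 or Tnfrsf13b. The marker list of macrophages moved with these genes. All 12 of its genes lay above PBS in every GB2 tumor, and its summed level was 44.6, 62.1 and 44.7 FPKM in PBS tumors and 179, 175 and 240 FPKM in GB2 tumors. Among its defining genes, Adgre1, which encodes F4/80, had a log2 fold change of 2.55 and Csf1r one of 2.01. The list of 8 fibroblast genes did the same, at 41.9, 61.2 and 35.5 FPKM against 139, 113 and 160 FPKM. Of 8 endothelial genes 7 lay wholly above, with sums of 12.1, 14.7 and 13.4 FPKM against 29.4, 26.2 and 30.4 FPKM. Of 6 tested neutrophil genes 5 did, although Ly6g was at 0 in all tumors, and of 4 tested dendritic cell genes 2 did. So did 3 of 4 tested mast cell genes and 5 of 7 skeletal muscle genes. Muscle sums were 45.8, 41.2 and 69.8 FPKM in PBS tumors and 107, 92 and 92.7 FPKM in GB2 tumors. Over all genes tested, 8.61% lay wholly above PBS. What part these cells have in the receptor values was not tested.

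**Figure D4:**
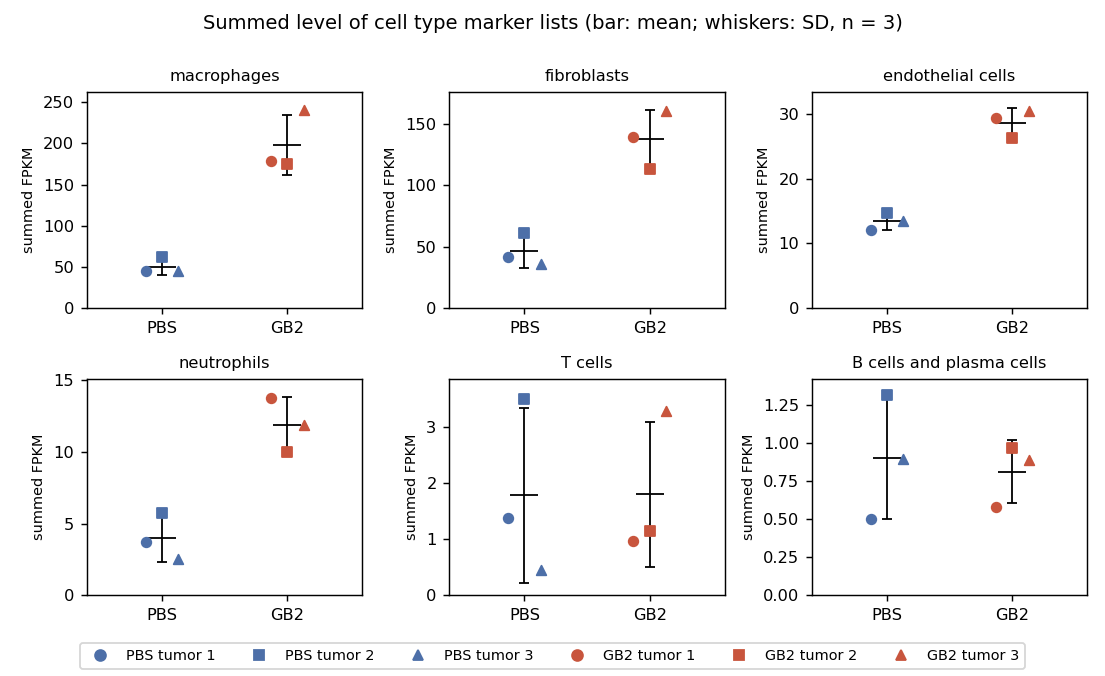
Summed FPKM of 6 cell type marker lists in each tumor, with the mean and SD of 3 tumors per group and axes from 0. Macrophage, fibroblast, endothelial and neutrophil sums are higher in every GB2 tumor than in any PBS tumor, while T cell and B cell sums overlap.

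Sequences upstream of the 5 receptor genes are given because these genes separated the groups together. Promoters from 250 bases before to 50 bases after the start were matched in RefSeq on GRCm38.p6 for 32 of the 42 members, among them 4 of the 5, with Cd40 named only. Capitals mark matches, on either strand, to GAGGAAG (the core bound by PU.1, a myeloid factor), a pair of GAAA runs with any 2 bases between them (core of the interferon-stimulated response element), TTCNNNGAA (gamma-activated site), TATAAA or NF-kappa B.
Tnfrsf1b, chr4:145246821-145247120, minus strand: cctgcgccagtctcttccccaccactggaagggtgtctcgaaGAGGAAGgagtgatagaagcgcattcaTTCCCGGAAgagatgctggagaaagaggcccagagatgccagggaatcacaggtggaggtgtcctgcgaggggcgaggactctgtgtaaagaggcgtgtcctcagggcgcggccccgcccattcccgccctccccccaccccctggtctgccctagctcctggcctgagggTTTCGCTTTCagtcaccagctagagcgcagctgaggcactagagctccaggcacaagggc
Tnfrsf23, chr7:143685826-143686125, minus strand: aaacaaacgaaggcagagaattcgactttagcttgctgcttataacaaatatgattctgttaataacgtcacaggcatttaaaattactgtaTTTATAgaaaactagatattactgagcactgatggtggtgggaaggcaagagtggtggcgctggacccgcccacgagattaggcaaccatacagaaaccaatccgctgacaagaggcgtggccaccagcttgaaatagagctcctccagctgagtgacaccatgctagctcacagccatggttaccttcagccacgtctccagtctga
Tnfrsf21, chr17:43016305-43016604, plus strand: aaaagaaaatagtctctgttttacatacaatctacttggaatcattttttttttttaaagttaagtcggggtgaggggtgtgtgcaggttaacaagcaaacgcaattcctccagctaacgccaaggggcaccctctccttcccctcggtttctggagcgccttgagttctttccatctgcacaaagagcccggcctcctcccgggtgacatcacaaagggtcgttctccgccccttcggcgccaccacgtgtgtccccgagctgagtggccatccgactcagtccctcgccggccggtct
Tnfrsf13b, chr11:61126505-61126804, plus strand: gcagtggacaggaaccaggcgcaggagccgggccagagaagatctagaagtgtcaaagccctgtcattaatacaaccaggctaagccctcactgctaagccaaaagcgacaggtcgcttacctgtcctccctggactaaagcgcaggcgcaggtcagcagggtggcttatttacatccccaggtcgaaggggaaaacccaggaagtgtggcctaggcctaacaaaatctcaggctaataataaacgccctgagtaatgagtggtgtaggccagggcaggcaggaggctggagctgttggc
The Tnfrsf1b window held 3 matches, none of which overlapped another. Counting back from the start, GAGGAAG lay at bases -208 to -202, TTCCCGGAA, a gamma-activated site, at -181 to -173, and TTTCGCTTTC, the reverse strand of the interferon element core, at -10 to -1. The Tnfrsf23 window held TTTATA, the reverse of TATAAA, at -158 to -153. The windows of Tnfrsf21 and Tnfrsf13b held 0 matches to these letters.

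Such matches were more common for some motifs than for others. GAGGAAG was in 13.6% of 32851 promoter windows of the same length, the interferon element core in 3.44%, TTCNNNGAA in 8.3%, TATAAA in 13.6% and the NF-kappa B motif in 8.46%. Of the 32 matched members, the counts were 6, 3, 9, 5 and 4 in the same order. Tnfrsf14 and Tnfsf13b, the other members with the interferon element core, had log2 fold changes of 0.80 and 0.56 and overlapped between groups. A match describes letters in the window and is not evidence of binding.

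Ligands and receptors that form known pairs were then read together. Tnf itself had estimated counts of 9, 44 and 24 in PBS tumors and 56, 43 and 46 in GB2 tumors. PBS tumor 1 was low, and PBS tumor 2 lay within the GB2 range. The log2 fold change was 0.62 (SE 0.59), with an edgeR adjusted p of 0.821. It was 1.22 without PBS tumor 2 and 0.27 without PBS tumor 1. For its receptor gene Tnfrsf1a the log2 fold change was 0.10 (SE 0.16) with overlapping groups.

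Ltb, the membrane anchor of lymphotoxin, was low at 0.271, 0.341 and 0.156 CPM under PBS and 0.202, 0.553 and 0.529 CPM under GB2. Its receptor Ltbr was at 121 ± 17.5 and 110 ± 11.2 CPM (SD, n = 3). Neither separated the groups, with log2 fold changes of 0.74 and -0.14. Tnfsf14, or LIGHT, which also binds this receptor, was at 0, 0.255 and 0.0566 CPM under PBS and 0.286, 0.144 and 0.388 CPM under GB2. The herpesvirus entry mediator gene Tnfrsf14, its second receptor, stood at 0.473, 0.781 and 0.269 CPM against 0.405, 0.986 and 1.27 CPM. Without PBS tumor 2 the log2 fold change of Tnfsf14 was 3.15, against 1.36 with all tumors. Groups overlapped in all 4 genes.

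Tnfsf9 and its receptor Tnfrsf9, or CD137, which costimulates CD8 T cells, had log2 fold changes of -0.15 (SE 0.25) and -0.36 (SE 0.48). Tnfrsf9 was at 9.25, 10.1 and 3.93 CPM in PBS tumors and 2.94, 7.78 and 7.45 CPM in GB2 tumors, a wide spread in both groups. Tnfsf12, or TWEAK, was at 2.42, 2.63 and 3.59 CPM against 3.23, 2.27 and 3.32 CPM. Its receptor gene Tnfrsf12a was at 40.3 ± 4.4 CPM against 44.6 ± 10.7 CPM (SD, n = 3). The direction of Tnfsf9, Tnfsf12 and Tnfrsf12a turned when single tumors were left out.

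Tnfsf10, or TRAIL, was at 0.507, 1.19 and 0.113 CPM in PBS tumors and 0.548, 0.854 and 2.08 CPM in GB2 tumors, and its log2 fold change of 0.94 ranged from 0.21 to 1.91 over left-out tumors. Its death receptor gene Tnfrsf10b was at 5.94, 11.4 and 9.86 CPM under PBS and 6.49, 6.55 and 6.06 CPM under GB2. The GB2 tumors lay close together and within the PBS range, with a log2 fold change of -0.51 (SE 0.29) and an edgeR adjusted p of 0.757. Fas, which triggers apoptosis on binding its ligand, was at 0.44, 0.667 and 0.17 CPM against 0.5, 0.445 and 0.694 CPM. Fasl was detected in PBS tumor 2 alone, at 17 estimated counts, and was at 0 in the other 5 tumors.

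Tnfsf13b, or BAFF, which sustains B cells, was at 0.271, 0.369 and 0.0566 CPM in PBS tumors and 0.131, 0.577 and 0.318 CPM in GB2 tumors. Its receptor gene Tnfrsf13c did not pass the filter, at 0, 0.0851 and 0.156 CPM against 0, 0.0962 and 0.118 CPM. Tnfsf13, or APRIL, which like BAFF binds TACI, was at 0.304, 0.525 and 0.863 CPM under PBS and 0.846, 1.64 and 1.13 CPM under GB2. PBS tumor 3 lay just above GB2 tumor 1, and the log2 fold change was 1.09 (SE 0.50), with an edgeR adjusted p of 0.754. Tnfsf13 and Tnfsf12 lie 0.5 kb apart and overlap a readthrough gene on their strand and Tnfsf13os on the other. How reads of this locus were divided is not known, so their separate values are uncertain.

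Receptors of activated T cells gave no separation. Log2 fold changes were 0.36 for Tnfrsf4, which encodes OX40, 0.49 for Tnfrsf18, which encodes GITR, 0.28 for Cd27 and 0.10 for Tnfrsf8, which encodes CD30. Without PBS tumor 2 Tnfrsf8 was at 1.62, and without GB2 tumor 3 it was at -0.35 and Cd27 at -0.14. T cell markers were low and did not separate either, with 0 of 9 tested genes lying wholly above or below. Their summed FPKM was 1.38, 3.51 and 0.451 in PBS tumors and 0.962, 1.15 and 3.29 in GB2 tumors. The remaining tested receptors were Tnfrsf19 at 0.47, Tnfrsf25 at 0.05, Eda2r at -0.09 and Ngfr at 1.30, all overlapping between groups. Over left-out tumors Tnfrsf19 ranged from -0.03 to 0.92, Tnfrsf25 from -0.15 to 0.24, Eda2r from -0.76 to 0.75 and Ngfr from 0.58 to 3.31, the last without PBS tumor 3.

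The 12 members that were not tested were Cd40lg, Cd70, Eda, Edar, Fasl, Lta, Tnfrsf13c, Tnfsf13os, Tnfsf15, Tnfsf18, Tnfsf4 and Tnfsf8. Cd40lg, Cd70, Fasl and Lta are known products of activated lymphocytes. None exceeded 33 estimated counts in any tumor, and 6 of them stayed under 12 counts throughout. Tnfsf18, the ligand of GITR, had counts of 0, 0 and 4 in PBS tumors and 25, 7 and 33 in GB2 tumors. Against the level that 12 counts per library represent in PBS tumors, taken as an upper limit there, the mean GB2 level was at least 1.42-fold higher than under PBS. Eda, or ectodysplasin, had counts of 4, 4 and 0 against 24, 12 and 9. The mean GB2 level of Eda did not exceed that limit, so no fold is given. In both genes every GB2 tumor was above every PBS tumor, but at a few read pairs per tumor, and GB2 tumor 2 of Tnfsf18 and GB2 tumor 3 of Eda were themselves under 12 counts.

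Intracellular signalling genes of the pathway differed little. All 33 adaptors, kinases, caspases and ligases were tested, 23 with a log2 fold change above 0 and 10 below, with a median of 0.09. Of these, 3 lay wholly above PBS and 0 below, and 2 of the 3 had an unadjusted p under 0.05, shares near the 8.61% and 6.94% of all genes tested. Ripk3, the kinase that drives necroptosis, had estimated counts of 43, 128 and 93 in PBS tumors and 290, 226 and 356 in GB2 tumors. This gave a log2 fold change of 1.42 (SE 0.41), with an edgeR adjusted p of 0.422 and a DESeq2 adjusted p of 0.0485. Birc3, which encodes the ubiquitin ligase cIAP2, had a log2 fold change of 0.92 (SE 0.29) and an edgeR adjusted p of 0.525. The other was Traf1, an adaptor itself induced by NF-kappa B, at 0.88 (SE 0.77), where PBS tumor 2 and GB2 tumor 1 were both at 1.04 CPM after rounding. Traf2, which binds many receptors of the family, was at 26.8 ± 3.3 CPM under PBS and 26.5 ± 3.33 CPM under GB2 (SD, n = 3).

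The 8 genes of ligand shedding and processing were tested as well. Their median log2 fold change was 0.20, all overlapped between groups and 0 had an unadjusted p under 0.05. Adam17, the main sheddase of TNF, was at 93.5 ± 8.7 CPM under PBS and 88.8 ± 6.38 CPM under GB2 (SD, n = 3). A list of 15 genes held TNF-induced genes, feedback inhibitors and the paralogs of Tnfaip8, which are not established as induced by TNF. Of these, 14 were tested, with a median of 0.35, 7 lying wholly above PBS and 0 below, beside 8.61% and 6.68% of all genes. Among the 7, Sele was under 12 counts in every PBS tumor, at 8, 0 and 4 against 16, 15 and 15 in GB2 tumors. It passed the filter on low counts through its GB2 tumors alone, which limits this tally. At an unadjusted p under 0.05 there were 3, beside 6.94%, namely Vcam1 at 1.64 (SE 0.46), Tnfaip8l2 at 2.02 (SE 0.62) and Selp at 2.46 (SE 1.01). Their adjusted p was 0.41, 0.477 and 0.701 in edgeR and 0.0387, 0.0933 and 0.322 in DESeq2. Without PBS tumor 1 Tnfaip8l2 was at 2.62. Selp was at 0 counts in PBS tumor 1 and stood at 3.34 without PBS tumor 2. Tnfaip8l2 encodes TIPE2, known as an immune regulator of leukocytes. Vcam1 and Selp encode adhesion molecules of activated endothelium, and the endothelial marker sums given above moved with them. Tnfaip3, the feedback inhibitor of NF-kappa B, was at 7.37 ± 2.58 CPM under PBS and 8.48 ± 0.279 CPM under GB2 (SD, n = 3), with overlapping groups.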

How the data were processed

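RNA-seq libraries were made from poly(A) RNA of 6 tumors, with a kit that marks strand per the labels. The submitters' processing notes name cutadapt 1.9, HISAT2 2.2.1, StringTie 2.1.6, DESeq2, edgeR and mm10. How strand was set in counting is not given in the sources used here. The authors deposited 1 table, which gives each gene's estimated count and FPKM by tumor, the FPKM being scaled to gene length and library size. Gene positions in it matched GRCm38 for 2.00% of 31999 shared identifiers and for 0 of 42 members, so no coordinate is printed from it, and distances between neighbouring genes are those of the table itself.

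Counts were tested with edgeR 4.0.16 in R 4.3.3 (filterByExpr with a minimum count of 10, TMM scaling, quasi-likelihood test, no covariate, Benjamini-Hochberg adjustment over 19602 genes). CPM values are TMM-scaled. Library totals of 64764405 to 83690056 overstate the read pairs behind each value about 4 times. The biological coefficient of variation was 40.5%. Alternatives were DESeq2 1.42.0, limma 3.58.1 (voom, or log2 FPKM with a pseudocount of 1 or 0.1), other scalings and filters, counts divided by 4, a replicate block and leaving out each tumor. The code was tested on simulated counts, where DESeq2 called more genes simulated without change than edgeR or limma voom did. The adjusted p values of DESeq2 are therefore to be read with more caution. In the same counts edgeR and limma voom called fewer of the genes simulated with a change, and missed most of those changed 2-fold. Their lack of calls therefore does not show that no gene changed. Per-tumor values are printed for members with an unadjusted p under 0.05, the 5 highest by FPKM, and 19 ligand and receptor partners. From the pathway lists, genes with an unadjusted p under 0.05 are named. Other genes with values, such as Tnfsf13, Tnfsf18, Eda, Adam17, Tnfaip3, Traf1, Traf2 and single marker genes, were chosen after their values were seen. Members and lists were chosen with earlier results of these data known. In the other cell type lists, genes wholly above PBS were 0 of 6 for NK cells and 0 of 4 for regulatory T cells. They were 1 of 5 for epithelium, 0 of 8 for skin and 1 of 6 for adipocytes, beside 8.61% of all genes. All 5 erythroid genes were lower (median log2 fold change -2.93, 3 at an unadjusted p under 0.05 in edgeR) with overlapping groups. Over left-out tumors their log2 fold changes ranged from -5.32 (Hbb-bt, without GB2 tumor 1) to -1.33 (Hbb-bs, without PBS tumor 1).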

Additional observations from a re-analysis of the deposited data

How the results depend on the processing

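No gene was called after adjustment under any alternative apart from DESeq2, which called 385 genes, 4 of them members. The 5 receptor genes higher in GB2 tumors before adjustment (p below 0.05, at least 2-fold) remained 5 of 5 under other scalings, limma voom, log2(FPKM + 0.1) and each left-out tumor. Counts divided by 4 and a minimum count of 40 kept 4, since Tnfrsf13b was not tested. With log2(FPKM + 1) the count was 0, because the pseudocount exceeds most of their levels and reduced the log2 fold changes to between 0.26 and 0.79, and the median of ligands was 0.14. Without any filter 6 members were higher, with Tnfsf18 added. Over left-out tumors the count of higher members ranged from 5 to 8, of members wholly above PBS from 6 to 14, and of members wholly below from 0 to 1, while the share of all genes ranged from 2.49% to 4.63%, 11.6% to 15.6% and 9.76% to 14.7%. Some members in the larger of these counts, such as Tnfsf18, passed the filter through their GB2 tumors alone. The median log2 fold change ranged from 0.47 to 1.06 for ligands and from 0.26 to 0.74 for receptors. Over the edgeR and limma alternatives the adjusted p ranged from 0.206 to 0.83 for Tnfrsf1b, 0.246 to 0.891 for Cd40, 0.25 to 0.998 for Tnfrsf13b, 0.304 to 0.891 for Tnfrsf21 and 0.235 to 0.857 for Tnfrsf23. With 1 tumor left out, 10 tested members turned direction. They were Fas (-0.02 to 0.85), Tnfrsf12a (-0.04 to 0.31), Tnfsf13b (-0.04 to 1.07), Tnfsf9 (-0.30 to 0.07), Tnfsf12 (-0.07 to 0.23), Cd27 (-0.14 to 0.63), Eda2r (-0.76 to 0.75), Tnfrsf19 (-0.03 to 0.92), Tnfrsf25 (-0.15 to 0.24) and Tnfrsf8 (-0.35 to 1.62). Eda2r also turned with limma voom (0.01), log2(FPKM + 0.1) (0.05) and the replicate block (0.01). The cause was not tested. Same-numbered tumors did not deviate together (correlations 0.031, 0.154 and -0.245), so the numbers do not pair them. With the replicate number as a block, 5 members were higher, the median was 0.74 for ligands and 0.46 for receptors, and 0 genes were called. The 12 untested members rest on a few read pairs per tumor, which limits what can be said of them.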
